A study of Mus musculus with 9 samples.

Results

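Chemokines are small secreted proteins that guide leukocytes, and the genes described here are the mouse chemokine ligands and the receptors that bind them. Members were taken by symbol. A gene counted as a ligand when its symbol was Ccl, Cxcl, Cx3cl or Xcl followed by digits, and as a receptor when its symbol was Ccr, Cxcr, Cx3cr or Xcr followed by digits. These rules took 34 ligands and 18 receptors, which are 52 of the 55385 genes measured. Symbols with a further letter, such as Ccl21a and Ccl27a, and the atypical receptors fall outside the rules and appear only as a list.

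RNA sequencing was done on poly(A) RNA from whole kidneys of male C57BL/6 mice (C57BL/6J in the study's methods) that were 8 to 10 weeks old when the study began. Control mice were untreated. In HN, hyperuricemic nephropathy was induced over 4 weeks by a purine, adenine, and an inhibitor of urate breakdown, potassium oxonate, dosed at 0.16 and 2.4 g/kg on 1 day of every 2. PEC mice received the same regimen with pectolinarigenin, a plant flavonoid, by mouth each day over the same 4 weeks, at 25 mg/kg. The sample labels give no dose, and 25 mg/kg is the group the study names in its RNA-seq results, while its methods also list a group at 50 mg/kg. The study kept 8 mice in each group, and 3 mice from each were sequenced, with 1 library from each mouse. The sample titles put all 9 libraries under HN mice, while the disease state of the 3 Control libraries is control, and the disease state was used here. Total counts ran from 57714111 to 81069646 per library, with a median of 74397038.

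Levels are given in FPKM, fragments scaled to transcript length and library total, which can be compared between genes. Differences between groups are log2 fold changes with their standard error (SE), from a fit of the counts of all genes in edgeR with TMM scaling. The TMM factors were 0.778 to 0.832 in the Control, 1.15 to 1.22 in HN and 1.02 to 1.05 in PEC, so ratios of FPKM between HN and Control are larger than the fitted folds. A gene was called when the fold was at least 1.5 and the adjusted p at most 0.05. Values of single mice are in the order of Control replicates 2, 4 and 5, HN replicates 4, 8 and 12, and PEC replicates 1, 2 and 3. Whether single mice overlap or lie above others is judged in FPKM unless TMM scaling is named. A count of 4 was the commonest count above 0 in every library. For this reason 12 counts in a library, 3 times that count, were taken as the floor below which a level could not be told from 0, a choice made after the counts were seen. Whether these counts are 1 per fragment is not given in the sources used here, and if they are not, the floor and the SEs do not have the meaning that counts of fragments would give them.

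Chemokine ligands fall into the CC, CXC, CX3C and XC families by the spacing of their first cysteines, and each binds a small set of G protein-coupled receptors on leukocytes. CCR2 and its ligands draw inflammatory monocytes out of the blood, CXCR2 and the ELR ligands draw neutrophils, and CXCR3 and its interferon-induced ligands draw activated T cells. In kidney, tubule cells and infiltrating macrophages are known sources of these ligands during injury, and Ccl2 (MCP-1) is a widely used marker of that inflammation.

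Before any comparison, the PEC libraries stood apart from the others in ways that bear on every result with PEC. Over all genes tested, the first principal component (40.5% of the variance) separated Control from the other groups, and the second (27.1%) put HN at 74.6 to 85.7, PEC at -90.9 to -79.8 and Control between, at 0.214 to 7.20. Genes with a count of exactly 5 numbered 67.2 ± 1.59% (SD, n = 3) of those with a count of exactly 4 in the Control and 66.3 ± 4.59% in HN, but 18.7 ± 1.22% in PEC. Counts on ribosomal RNA genes were 0.00224 ± 0.000533% of the total in the Control, 0.00229 ± 0.000483% in HN and 0.306 ± 0.325% in PEC, with PEC replicate 2 at 0.682%. No library outside PEC shares these features, so a library batch and the effect of PEC cannot be told apart. Fitted without any PEC library, HN against Control gave 37 of 47 tested members called higher (78.7%) and 2 called lower (4.26%). Over all genes tested in that fit, 19.9% were called higher and 14.8% lower.

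The coding stretches around the first cysteines show what sets the families apart, and they are shown for the ligands on which the results turn. Each runs 5′ to 3′ on the coding strand of a GENCODE M21 transcript (build GRCm38), and capitals mark the codons of the first 2 cysteines. In Ccl2 (chr11:82035734-82035737 and chr11:82036483-82036538), Ccl7 (chr11:82045853-82045859 and chr11:82046518-82046570), Ccl12 (chr11:82101969-82101972 and chr11:82102611-82102666) and Ccl28 (chr13:119623933-119623936 and chr13:119645869-119645924) the cysteine codons are adjacent, the mark of CC ligands.
Ccl2: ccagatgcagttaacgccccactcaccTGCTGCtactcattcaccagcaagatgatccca
Ccl7: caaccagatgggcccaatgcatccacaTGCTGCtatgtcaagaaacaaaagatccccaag
Ccl12: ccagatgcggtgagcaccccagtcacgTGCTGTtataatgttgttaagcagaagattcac
Ccl28: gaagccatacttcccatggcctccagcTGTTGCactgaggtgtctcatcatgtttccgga
In CXC ligands 1 codon stands between them, as in Cxcl1 (chr5:90891380 and chr5:90891470-90891531), Cxcl2 (chr5:90904023 and chr5:90904116-90904177), Cxcl5 (chr5:90759700-90759762) and, on the minus strand, Cxcl10 (chr5:92348754 and chr5:92348154-92348215). Capitals also mark the codons for glutamate, leucine and arginine (ELR) where they lie directly before the first cysteine, the mark of ligands that bind CXCR2.
Cxcl1: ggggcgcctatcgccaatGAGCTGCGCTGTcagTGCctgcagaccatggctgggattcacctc
Cxcl2: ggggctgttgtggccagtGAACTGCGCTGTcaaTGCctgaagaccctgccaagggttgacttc
Cxcl5: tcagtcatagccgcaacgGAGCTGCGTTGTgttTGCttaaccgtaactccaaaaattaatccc
Cxcl10: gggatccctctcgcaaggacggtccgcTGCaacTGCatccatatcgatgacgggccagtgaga
In Cx3cl1 (chr8:94772331-94772334 and chr8:94778028-94778092) 3 codons stand between the cysteines, the CX3C spacing.
Cx3cl1: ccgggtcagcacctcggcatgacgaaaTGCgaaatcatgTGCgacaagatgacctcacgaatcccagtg
Of the 13 Cxcl ligands, 5 have ELR directly before the first cysteine, namely Cxcl1, Cxcl2, Cxcl3, Cxcl5 and Cxcl15.

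HN against Control asks what the disease regimen changes. Most of the chemokine ligands and receptors tested were called higher in HN kidneys. None was in the CCR9, CCR10 and CX3C axes, an axis being a receptor with its ligands. Of the 49 members tested, 38 were called higher, 25 ligands and 13 receptors, and 1 was called lower, Ccl28. Over all genes tested, 17.7% were called higher and 14.7% lower, against 77.6% and 2.04% of the tested members. Summed over the 34 ligands, the level was 65.2 ± 9.09 FPKM in the Control (SD, n = 3) and 349.8 ± 33.9 FPKM in HN, and over the 18 receptors it was 5.71 ± 0.733 and 42.2 ± 2.43 FPKM. FPKM follow library totals, and divided by the TMM factors the ligand sums are 80.6 ± 10.6 and 294 ± 33.9 and the receptor sums 7.04 ± 0.671 and 35.4 ± 1.55.

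The median log2 fold change over the tested members was 3.06, and 2.34 with the floor in place of the Control level for the 13 genes at or under it in all Control mice, beside -0.0008 over all genes. Untested were Ccl26, with 0 counts in every library, and the receptors Ccr3 and Cxcr1, with at most 12 and 8 counts. A member that passed the filter on low counts only because HN was high had to differ, so these counts describe the tested members and are not evidence about the others. Scaling matters for all genes here, since library totals in place of TMM move the median of HN against Control up by 0.56 and the share of calls that are higher from 54.5% (3777 higher, 3154 lower) to 85.7% (7708 higher, 1286 lower). With library totals 42 members were called higher and Ccl28 was not called. In whole kidney, more cells of a type and more RNA in each cell cannot be told apart, and neither can fewer cells and less RNA in each.

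Which ligands made up the total also differed between the groups. In the Control, Cxcl14 (21.9%), Cx3cl1 (19.7%), Cxcl16 (17.2%), Ccl28 (12.6%) and Cxcl12 (11.5%) together held 82.9 ± 2.52% of the summed ligand FPKM. In HN the leading 5 were Cxcl14 (19.7%), Cxcl16 (14.4%), Ccl6 (7.85%), Ccl12 (6.83%) and Ccl2 (6.42%), at 55.2 ± 0.687% of the sum. Among receptors, Cx3cr1 led in the Control with 23.4% of the summed receptor FPKM, and held 6.50% in HN, where Cxcr4 (20.4%), Ccr2 (19.1%) and Ccr1 (14.9%) led.

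**Figure D1:**
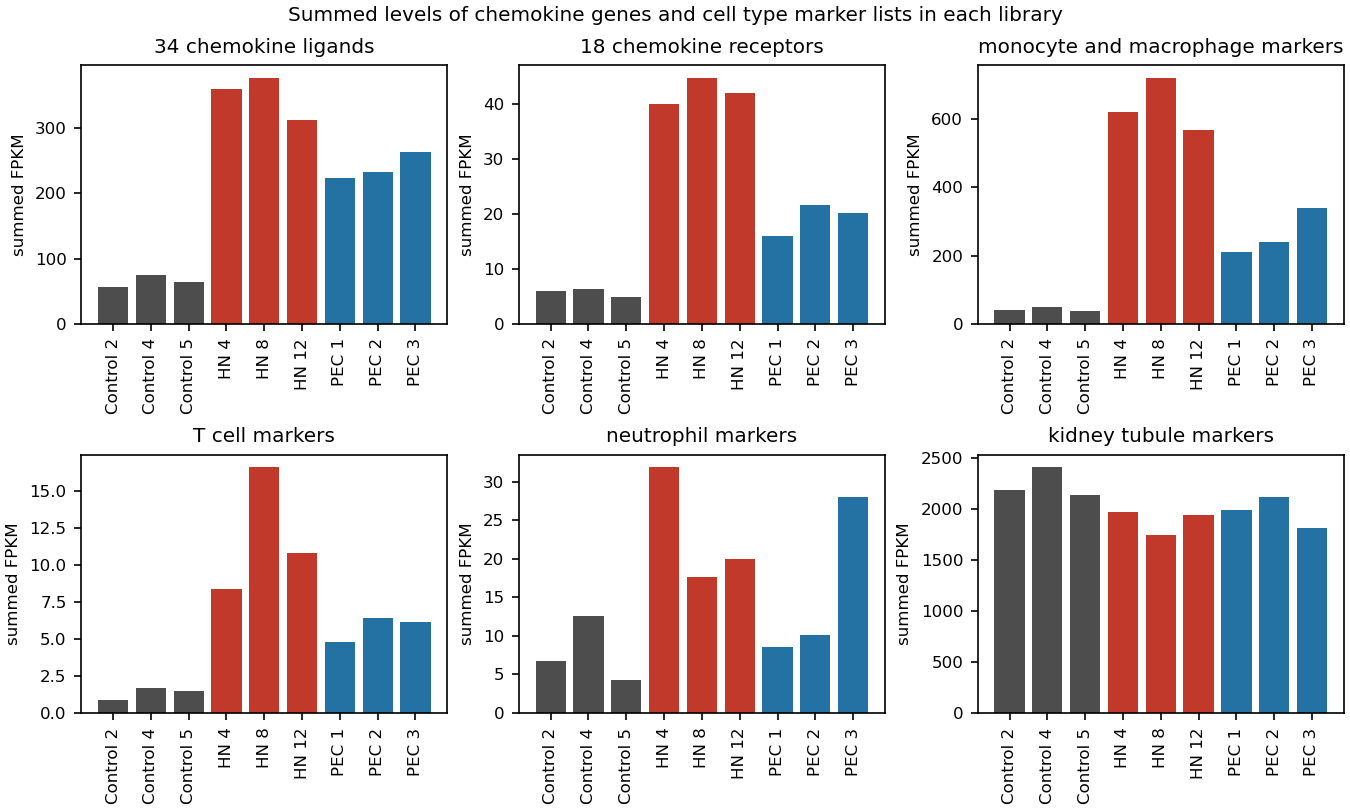
Each bar gives the summed FPKM of 1 mouse, coloured by group, for the 34 ligands, the 18 receptors and 4 lists of cell type markers, with an axis of its own for each panel. The means of the 3 Control, HN and PEC mice are 65.2, 349.8 and 239.7 FPKM for ligands and 5.71, 42.2 and 19.2 FPKM for receptors.

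The bars of summed levels show the HN mice above the Control mice for both ligands and receptors, with no overlap between single mice, and the PEC mice between them.

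The CCR2 axis holds Ccl2, Ccl7 and Ccl12, which attract monocytes, and Ccr2, their receptor on inflammatory monocytes. Ccl2 (ENSMUSG00000035385, chr11:82035571-82037453) was at 0.92, 0.34 and 0.7 FPKM in the Control, 30.98, 22.5 and 14.7 FPKM in HN and 16.8, 8.58 and 11.1 FPKM in PEC. Every HN mouse was above every Control mouse by a wide margin, with HN replicate 4 highest. The log2 fold change was 4.57 ± 0.46 (edgeR adjusted p = 5.8e-05), a 23.7-fold rise. Ccl7 (ENSMUSG00000035373, chr11:82045712-82047525) was at 0.06, 0.27 and 0.18 FPKM in the Control, 13.4, 18.2 and 9.57 FPKM in HN and 4.61, 4.07 and 7.6 FPKM in PEC. It was nearly absent from the Control, where its counts were 5, 18 and 12, and present in all HN mice, with a log2 fold change of 5.75 ± 0.49 (edgeR adjusted p = 2.27e-05). Ccl12 (ENSMUSG00000035352, chr11:82101845-82103400) was at 0.69, 1.81 and 0.44 FPKM in the Control, 26.3, 24.8 and 20.7 FPKM in HN and 6.62, 5.56 and 13.5 FPKM in PEC. The HN mice lay close together and far above the Control, and the log2 fold change was 4.09 ± 0.54 (edgeR adjusted p = 0.000295). With 1 mouse left out it ranged from 3.75 to 4.85.

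Ccr2 itself (ENSMUSG00000049103, chr9:124101950-124113557) was at 0.85, 0.89 and 0.8 FPKM in the Control, 5.28, 8.7 and 10.3 FPKM in HN and 3.29, 5.17 and 2.17 FPKM in PEC. The 3 Control mice were nearly equal and every HN mouse was above them, with a log2 fold change of 2.71 ± 0.32 (edgeR adjusted p = 0.000162), a 6.54-fold rise. All 4 genes of this axis thus rose in HN, and in HN the mean level of each ligand was above that of the receptor. The study's quantitative PCR for MCP-1 used a primer pair whose bases were found in the Ccl2 transcript. No other transcript was searched for these bases, which are shown because they tie the study's assay to the gene counted here.
Ccl2 forward primer: catccacgtgttggctca
Ccl2 reverse primer: gatcatcttgctggtgaatgagt
They span bases 145 to 162 and 198 to 220 of the 813-base transcript, a product of 76 bases inside the coding bases 92 to 538.

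Ccl3, Ccl5, Ccl6 and Ccl9 bind CCR1, a receptor of monocytes, macrophages and T cells, and Ccl4 is a close relative of Ccl3. Ccl6, a ligand made by myeloid cells (ENSMUSG00000018927, chr11:83587882-83593087), was at 2.32, 2.39 and 1.34 FPKM in the Control, 30.7, 28.5 and 23.4 FPKM in HN and 10.1, 14.2 and 18.7 FPKM in PEC. It was the third ligand by level in HN, above every Control mouse, with a log2 fold change of 3.24 ± 0.28 (edgeR adjusted p = 2.47e-05). Ccl9 was at 1.05, 0.85 and 0.39 FPKM in the Control, 15.9, 14.2 and 10.5 FPKM in HN and 7.24, 8.75 and 10.1 FPKM in PEC, and its log2 fold change was 3.63 ± 0.34 (edgeR adjusted p = 3.68e-05). No Control mouse reached any HN mouse for either gene. Ccl5 (RANTES), made by T cells and others, was at 0.67, 1.29 and 0.87 FPKM in the Control, 8.7, 13.3 and 8.26 FPKM in HN and 4.56, 6.01 and 10.3 FPKM in PEC. HN replicate 8 stood highest and all HN mice were above the Control, with a log2 fold change of 2.87 ± 0.37 (edgeR adjusted p = 0.000276).

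Ccl3 (MIP-1α) was at 0.15, 0.2 and 0 FPKM in the Control, 2.53, 3.58 and 2.61 FPKM in HN and 0.39, 0.77 and 1 FPKM in PEC. Ccl4 (MIP-1β) was at 0.55, 0.51 and 0.42 FPKM in the Control, 2.78, 4.55 and 2.69 FPKM in HN and 0.66, 0.94 and 1.69 FPKM in PEC. Both were low in the Control and higher in each HN mouse, with log2 fold changes of 4.06 ± 0.82 (edgeR adjusted p = 0.00344) for Ccl3 and 2.22 ± 0.40 (edgeR adjusted p = 0.00197) for Ccl4. Ccr1 (ENSMUSG00000025804, chr9:123962124-123968692) was at 0.23, 0.12 and 0.14 FPKM in the Control, 8.11, 4.61 and 5.9 FPKM in HN and 1.45, 2.04 and 1.98 FPKM in PEC. It was barely above 0 in the Control, and every HN mouse was far above, with a log2 fold change of 4.70 ± 0.34 (edgeR adjusted p = 9.32e-06), a 26.02-fold rise. Ccr1, its ligands and Ccl4 thus all rose.

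The ELR ligands attract neutrophils through CXCR2. Cxcl1 (ENSMUSG00000029380, chr5:90891241-90893115) was at 0.65, 0.81 and 0.36 FPKM in the Control, 20.6, 11.02 and 15.5 FPKM in HN and 12.4, 15.9 and 17.3 FPKM in PEC. Every Control mouse was low and every HN mouse high, with a log2 fold change of 4.17 ± 0.34 (edgeR adjusted p = 1.73e-05), an 18.04-fold rise. Cxcl2 (ENSMUSG00000058427, chr5:90903871-90905938) was at 0.07, 0.06 and 0.02 FPKM in the Control, 3.79, 2.61 and 2.71 FPKM in HN and 2.88, 4.01 and 2.71 FPKM in PEC. Again no Control mouse came near the HN mice, and the log2 fold change was 5.13 ± 0.35 (edgeR adjusted p = 7.56e-06). Cxcl5 (ENSMUSG00000029371, chr5:90759360-90761624) was at 0.03, 0 and 0 FPKM in the Control, 14.9, 10.9 and 10.7 FPKM in HN and 2.26, 1.95 and 5.56 FPKM in PEC. Its Control value rests on 4 counts in replicate 2, with 0 in the others, against 1647 to 2279 counts in HN, and the call was higher (edgeR adjusted p = 1.96e-05).

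Cxcl3 was at 0, 0 and 0 FPKM in the Control, 0.42, 0.3 and 0.25 FPKM in HN and 0.17, 0.2 and 0.09 FPKM in PEC, from counts of 0 in all 3 mice of the Control, 121, 95 and 73 of HN and 49, 51 and 22 of PEC. Measured against the floor, it was at least 5.48-fold higher in HN than in the Control, and it was called (edgeR adjusted p = 0.000144). Cxcl15 had counts of 0 in all 3 mice of the Control, 0, 0 and 5 of HN and 48, 60 and 22 of PEC, so in HN it could not be told from 0. Cxcr2, the receptor, was at 0.1, 0.23 and 0.06 FPKM in the Control, 1.47, 0.95 and 1.03 FPKM in HN and 0.25, 0.33 and 0.86 FPKM in PEC. It was low throughout, with every HN mouse above the Control, and its log2 fold change was 2.59 ± 0.59 (edgeR adjusted p = 0.00638). With 1 mouse left out this ranged from 2.26 to 3.23. Of the 6 genes tested in this axis, 5 rose, and Cxcr1 stayed under the floor in all libraries.

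Promoters of these ligands can be read beside their shared rise. RefSeq promoters of build GRCm38.p6, 250 bases before to 50 after each start site, matched 37 of the 52 members. The letters GGNNTTTCC, where N is any base, are a short form of the NF-kB motif. Searched on both strands, they lie in 1913 of all 32851 promoters (5.82%) and in 8 of the 37 members, Ccl9, Ccl20, Ccr3, Cxcl1, Cxcl2, Cxcl3, Cxcl9 and Cxcl10. The letters GAAANNGAA, shared by interferon-response motifs, lie in 2812 promoters (8.56%) and in 8 members, Ccl1, Ccl3, Ccl19, Ccr2, Cxcl9, Cxcl10, Cxcl14 and Cxcr1. Longer forms of both were searched first and lay in fewer promoters. Members were counted by gene, whatever the number of their promoters, and the background by promoter, so these shares do not have the same basis. Stretches of 100 bases are shown for members called higher in HN, 5′ to 3′ on the strand of the gene, with the matches to either motif in capitals. They are Cxcl1 (chr5:90891115-90891214), Cxcl2 (chr5:90903769-90903868), Cxcl3 (chr5:90785971-90786070), Ccl20 (chr1:83116636-83116735) and, on the minus strand, Cxcl10 (chr5:92349025-92349124).
Cxcl1: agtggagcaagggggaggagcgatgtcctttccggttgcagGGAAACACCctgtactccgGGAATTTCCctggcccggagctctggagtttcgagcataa
Cxcl2: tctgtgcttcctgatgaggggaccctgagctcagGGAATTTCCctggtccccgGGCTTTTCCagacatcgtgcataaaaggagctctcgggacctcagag
Cxcl3: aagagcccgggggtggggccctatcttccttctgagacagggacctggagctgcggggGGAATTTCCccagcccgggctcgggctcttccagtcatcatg
Ccl20: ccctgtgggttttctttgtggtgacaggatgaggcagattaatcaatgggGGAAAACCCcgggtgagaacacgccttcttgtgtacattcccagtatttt
Cxcl10: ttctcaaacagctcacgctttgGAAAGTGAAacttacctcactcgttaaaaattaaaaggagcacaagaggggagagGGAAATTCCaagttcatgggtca
Cxcl1 has matches to the first motif at -89 to -81 and -70 to -62 from the start site, Cxcl2 at -96 to -88 and -77 to -69, Cxcl3 at -72 to -64 and Ccl20 at -80 to -72. Cxcl10 has the second motif at -213 to -205 and the first at -158 to -150. These letters describe the windows and say nothing of binding.

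CXCR3 on activated T cells binds Cxcl9, Cxcl10 and Cxcl11, all induced by interferons. Cxcl10 (ENSMUSG00000034855, chr5:92346638-92348882) was at 0.58, 1.41 and 0.75 FPKM in the Control, 8.07, 16.9 and 8.68 FPKM in HN and 6.25, 7.32 and 13.1 FPKM in PEC. All HN mice were above the Control, replicate 8 most, and the log2 fold change was 3.07 ± 0.44 (edgeR adjusted p = 0.000487). Cxcl9 was at 0.21, 0.47 and 0.52 FPKM in the Control, 2.5, 5.89 and 2.64 FPKM in HN and 1.37, 2.9 and 3.28 FPKM in PEC, with the same HN mouse highest and a log2 fold change of 2.65 ± 0.49 (edgeR adjusted p = 0.00225). Cxcl11 was at 0.08, 0.04 and 0.1 FPKM in the Control, 0.11, 0.29 and 0.17 FPKM in HN and 0.25, 0.29 and 0.6 FPKM in PEC. Its HN and Control values nearly met in FPKM and overlapped after TMM scaling. It was not called (0.81 ± 0.52 (edgeR adjusted p = 0.25)), though with library totals it was, at 1.39. Cxcr3 was at 0.48, 0.7 and 0.35 FPKM in the Control, 1.64, 3.95 and 2.71 FPKM in HN and 0.97, 1.72 and 1.01 FPKM in PEC. Each HN mouse was above each Control mouse, and the log2 fold change was 1.89 ± 0.39 (edgeR adjusted p = 0.00371).

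Cxcl16 is a membrane-bound ligand of Cxcr6, a receptor of T cells, and its SE was small. Cxcl16 (ENSMUSG00000018920, chr11:70453983-70459984) was at 10.7, 12.1 and 10.7 FPKM in the Control, 50.8, 49.7 and 49.7 FPKM in HN and 37.95, 39.8 and 37.6 FPKM in PEC. Mice of each group were nearly equal and every HN mouse was far above the Control, with a log2 fold change of 1.63 ± 0.08 (edgeR adjusted p = 1.63e-06), a 3.10-fold rise. Cxcr6 (ENSMUSG00000048521, chr9:123806475-123811760) was at 0.69, 0.58 and 0.43 FPKM in the Control, 1.99, 5.33 and 3.19 FPKM in HN and 0.69, 1.02 and 0.93 FPKM in PEC. The HN mice spread widely but all lay above the Control, with a log2 fold change of 2.08 ± 0.36 (edgeR adjusted p = 0.0014).

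Cxcl12 holds leukocytes and progenitors in tissue through Cxcr4. Cxcl12 was at 7.98, 7.44 and 6.69 FPKM in the Control, 6.38, 5.58 and 7.19 FPKM in HN and 5.19, 5.77 and 14.5 FPKM in PEC. Control and HN mice overlapped in FPKM, whereas after TMM scaling every HN mouse lay below every Control mouse. PEC replicate 3, which is part of the same fit, stood apart from the other PEC mice. The change in HN was not called (-0.74 ± 0.34 (edgeR adjusted p = 0.115)). It was called lower in 3 of 22 alternatives, when the fit held only the groups compared (-0.71), with offsets not centred by library (-1.05) and without PEC replicate 3 (-0.74). Cxcr4 (ENSMUSG00000045382, chr1:128588199-128592293) was at 1.14, 1.27 and 1.08 FPKM in the Control, 11.5, 6.99 and 6.94 FPKM in HN and 3.42, 4.53 and 5.18 FPKM in PEC. HN replicate 4 was highest and all HN mice were above the Control, with a log2 fold change of 2.34 ± 0.26 (edgeR adjusted p = 9.55e-05). Cxcl13, which organises B cell follicles, was at 0.23, 0.23 and 0.37 FPKM in the Control, 1.51, 0.96 and 0.54 FPKM in HN and 0.34, 0.27 and 0.77 FPKM in PEC. In FPKM, HN lay above the Control but spread widely, and after TMM scaling HN replicate 12 fell below Control replicate 5. Cxcl13 was not called (1.30 ± 0.54 (edgeR adjusted p = 0.0836)), whereas library totals gave a call at 1.85, limma on log2 FPKM at 0.62 and 1.47 (pseudocounts of 1 and 0.1) and an unadjusted p at 1.30. Its receptor Cxcr5 had counts of 4, 0 and 0 of the Control, 21, 25 and 60 of HN and 12, 25 and 4 of PEC and was called higher (edgeR adjusted p = 0.024), a call lost without Control replicate 4 or 5 or HN replicate 12. No fold is given against a Control under the floor, and without Control replicate 2 the fitted log2 value goes from 4.06 to 7.88.

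Cxcl14 and Cxcl17 are CXC ligands of epithelia with no settled receptor among those listed. Cxcl14 (ENSMUSG00000021508, chr13:56288643-56296551), the ligand with the highest mean over all 9 libraries though not in PEC, was at 16.2, 16.1 and 9.9 FPKM in the Control, 62.4, 82.6 and 61.7 FPKM in HN and 33.7, 31.1 and 24.8 FPKM in PEC. Every HN mouse was above every Control mouse, with a log2 fold change of 1.76 ± 0.20 (edgeR adjusted p = 0.000122), a 3.39-fold rise. Cxcl17 (ENSMUSG00000060188, chr7:25400053-25412886) was at 0.06, 0 and 0.06 FPKM in the Control, 9.95, 12.3 and 12.5 FPKM in HN and 11.9, 10.3 and 8.54 FPKM in PEC. Its Control values rest on counts of 4, 0 and 4, under the floor, against 624 to 845 counts in HN, and it was called higher (edgeR adjusted p = 7.41e-06).

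Cx3cl1 (fractalkine) is a membrane-bound ligand of endothelium and epithelium, and Cx3cr1 is its receptor on resident macrophages. Cx3cl1 (ENSMUSG00000031778, chr8:94772009-94782427) was at 3.56, 20.7 and 16.1 FPKM in the Control, 9.34, 9.43 and 10.98 FPKM in HN and 42.1, 44.97 and 34.4 FPKM in PEC. Control replicate 2 was far below the other Control mice, so that HN lay between Control mice, and no change was called (-0.98 ± 0.49 (edgeR adjusted p = 0.142)). Without Control replicate 2 it was called lower (-1.43). Cx3cr1 was at 1.46, 1.5 and 1.06 FPKM in the Control, 1.99, 3.22 and 3.07 FPKM in HN and 2.1, 2.01 and 2.02 FPKM in PEC. It was somewhat higher in FPKM in each HN mouse, but after TMM scaling HN replicate 4 fell just below Control replicates 2 and 4. Cx3cr1 missed the call (0.51 ± 0.19 (edgeR adjusted p = 0.0557)), and it was called without HN replicate 4 (0.68), with library totals (1.07) and with limma (0.67 and 0.98 at pseudocounts of 1 and 0.1).

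Ccl28 is an epithelial ligand for Ccr10, known from mucosal surfaces, and was the member called lower in HN. Ccl28 (ENSMUSG00000074715, chr13:119623819-119654359) was at 7, 5.45 and 11.8 FPKM in the Control, 2.42, 4.49 and 5.48 FPKM in HN and 0.6, 1.11 and 0.84 FPKM in PEC. In FPKM, HN replicate 12 just overlapped Control replicate 4, and the other HN mice lay below all Control mice. After TMM scaling every HN mouse lay below every Control mouse. The log2 fold change was -1.52 ± 0.37 (edgeR adjusted p = 0.00953), 2.87-fold lower, and with library totals it was not called (-0.94). Ccr10 had 19 to 65 counts in all libraries and was not called (-0.01 ± 0.42 (edgeR adjusted p = 0.989)).

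Ccl17 and Ccl22 attract T cells through Ccr4 and are made by dendritic cells and macrophages. Ccl17 was at 0.09, 0.47 and 0.27 FPKM in the Control, 5.98, 2.76 and 4.94 FPKM in HN and 4.26, 6.49 and 4.54 FPKM in PEC, with a log2 fold change of 3.45 ± 0.50 (edgeR adjusted p = 0.000531). Ccl22 was at 0, 0.04 and 0.06 FPKM in the Control, 1.64, 1.54 and 1.76 FPKM in HN and 1.11, 1.96 and 1.35 FPKM in PEC, with Control counts of 0, 8 and 12, at or under the floor, and was called higher (edgeR adjusted p = 0.000401). Both were near 0 in the Control and present in each HN mouse. Ccr4 was at 0.03, 0.03 and 0.01 FPKM in the Control, 0.2, 0.18 and 0.17 FPKM in HN and 0.19, 0.27 and 0.44 FPKM in PEC, with Control counts of 9, 9 and 4, under the floor, and was called higher as well (edgeR adjusted p = 0.00544). Thus the whole CCR4 axis rose.

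Ccl20 attracts cells with Ccr6, and Ccl19 attracts cells with Ccr7 into lymphoid tissue. Ccl20 (ENSMUSG00000026166, chr1:83116766-83119167) was at 0.07, 0 and 0.08 FPKM in the Control, 5.08, 3.04 and 2.69 FPKM in HN and 2.57, 0.79 and 1.34 FPKM in PEC. Its Control counts were 9, 0 and 11, under the floor, and its HN counts 319 to 595, so no fold is given, and it was called higher (edgeR adjusted p = 0.000691). Ccr6 had counts of 0, 0 and 4 of the Control, 28, 26 and 52 of HN and 17, 15 and 12 of PEC and was called higher (edgeR adjusted p = 0.0119), with a fitted log2 value that goes from 4.06 to 7.88 without Control replicate 5. Ccr7 was at 0.07, 0.07 and 0.08 FPKM in the Control, 2.59, 1.84 and 1.63 FPKM in HN and 0.57, 1.04 and 1.28 FPKM in PEC. It was close to 0 in each Control mouse and clearly present in each HN mouse, with a log2 fold change of 4.18 ± 0.38 (edgeR adjusted p = 3.44e-05). Ccl19 was at 1.18, 0.64 and 1.08 FPKM in the Control, 2.18, 2.91 and 1.34 FPKM in HN and 1.12, 0.73 and 1.66 FPKM in PEC. It was not called (0.59 ± 0.42 (edgeR adjusted p = 0.297)), but it was with library totals (1.15) and with limma (0.66 and 1.05 at pseudocounts of 1 and 0.1). Reads of Ccl19 may be shared with other genes, since 447 of the 773 bases of its transcript match Gm2564 at 98.9% identity.

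Ccl8 and Ccl1 act on Ccr8, a receptor of regulatory and Th2 cells. Ccl8 (ENSMUSG00000009185, chr11:82115185-82116799) was at 0.28, 0 and 0.37 FPKM in the Control, 15.9, 20.8 and 16.9 FPKM in HN and 3.19, 4.8 and 12.6 FPKM in PEC. It rose from near 0 to a level like that of Ccl7, above the Control in each HN mouse, with a log2 fold change of 5.80 ± 0.87 (edgeR adjusted p = 0.000621). Its Control counts were 12, 0 and 16, and with 1 mouse left out the log2 fold change ranged from 5.21 to 6.43. Ccl1 had counts of 0 in all 3 mice of the Control, 5, 29 and 28 of HN and 4, 19 and 0 of PEC, and Ccr8 had counts of 0 in all 3 mice of the Control, 24, 36 and 12 of HN and 11, 10 and 12 of PEC. Both were 0 in the Control and called higher (edgeR adjusted p = 0.0372 and 0.00203), but not every HN mouse exceeded the floor, so no fold is given. The call of Ccl1 was lost without any 1 Control mouse, HN replicate 8 or 12 or PEC replicate 1.

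The remaining axes were low. Ccl11 (eotaxin), which attracts eosinophils through Ccr3, was at 0.23, 0.22 and 0 FPKM in the Control, 2.98, 1.43 and 1.02 FPKM in HN and 0.4, 0.84 and 2.18 FPKM in PEC, and Ccl24 had counts of 3, 0 and 0 of the Control, 32, 16 and 47 of HN and 15, 23 and 0 of PEC. Both were called higher, Ccl11 at 3.06 ± 1.02 (edgeR adjusted p = 0.0377) and Ccl24 (edgeR adjusted p = 0.0451) against a Control under the floor. The call of Ccl11 was lost without Control replicate 2 (3.51), Control replicate 4 (3.43), HN replicate 4 (2.47), HN replicate 8 (3.21) or PEC replicate 2 (3.06). The call of Ccl24 was lost in 8 of 18 alternatives, with no filter on low counts and without Control replicate 4 or 5, any 1 HN mouse or PEC replicate 1 or 2, and without Control replicate 2 its fitted log2 value goes from 4.30 to 7.74. Xcl1, a ligand of T and NK cells, was at 0.19, 0.18 and 0.08 FPKM in the Control, 0.63, 1.29 and 0.78 FPKM in HN and 0.25, 0.59 and 0.93 FPKM in PEC, and Xcr1, its receptor on cross-presenting dendritic cells, at 0.06, 0.17 and 0.15 FPKM in the Control, 0.58, 1.16 and 0.56 FPKM in HN and 0.49, 0.55 and 0.78 FPKM in PEC. HN mice were above the Control for both, and both were called, Xcr1 with a log2 fold change of 2.03 ± 0.44 (edgeR adjusted p = 0.00526) and Xcl1 (edgeR adjusted p = 0.0319) against Control counts of 9, 8 and 4, under the floor. The call of Xcl1 was lost without any 1 Control mouse or HN replicate 8 or 12. Ccl25, at 0.61 to 1.03 FPKM over the 9 mice, was not called (-0.40 ± 0.19 (edgeR adjusted p = 0.127)), and its change turned to 0.16 with library totals. Its receptor Ccr9, with 23 to 84 counts, was not called (0.49 ± 0.41 (edgeR adjusted p = 0.376)).

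**Figure D2:**
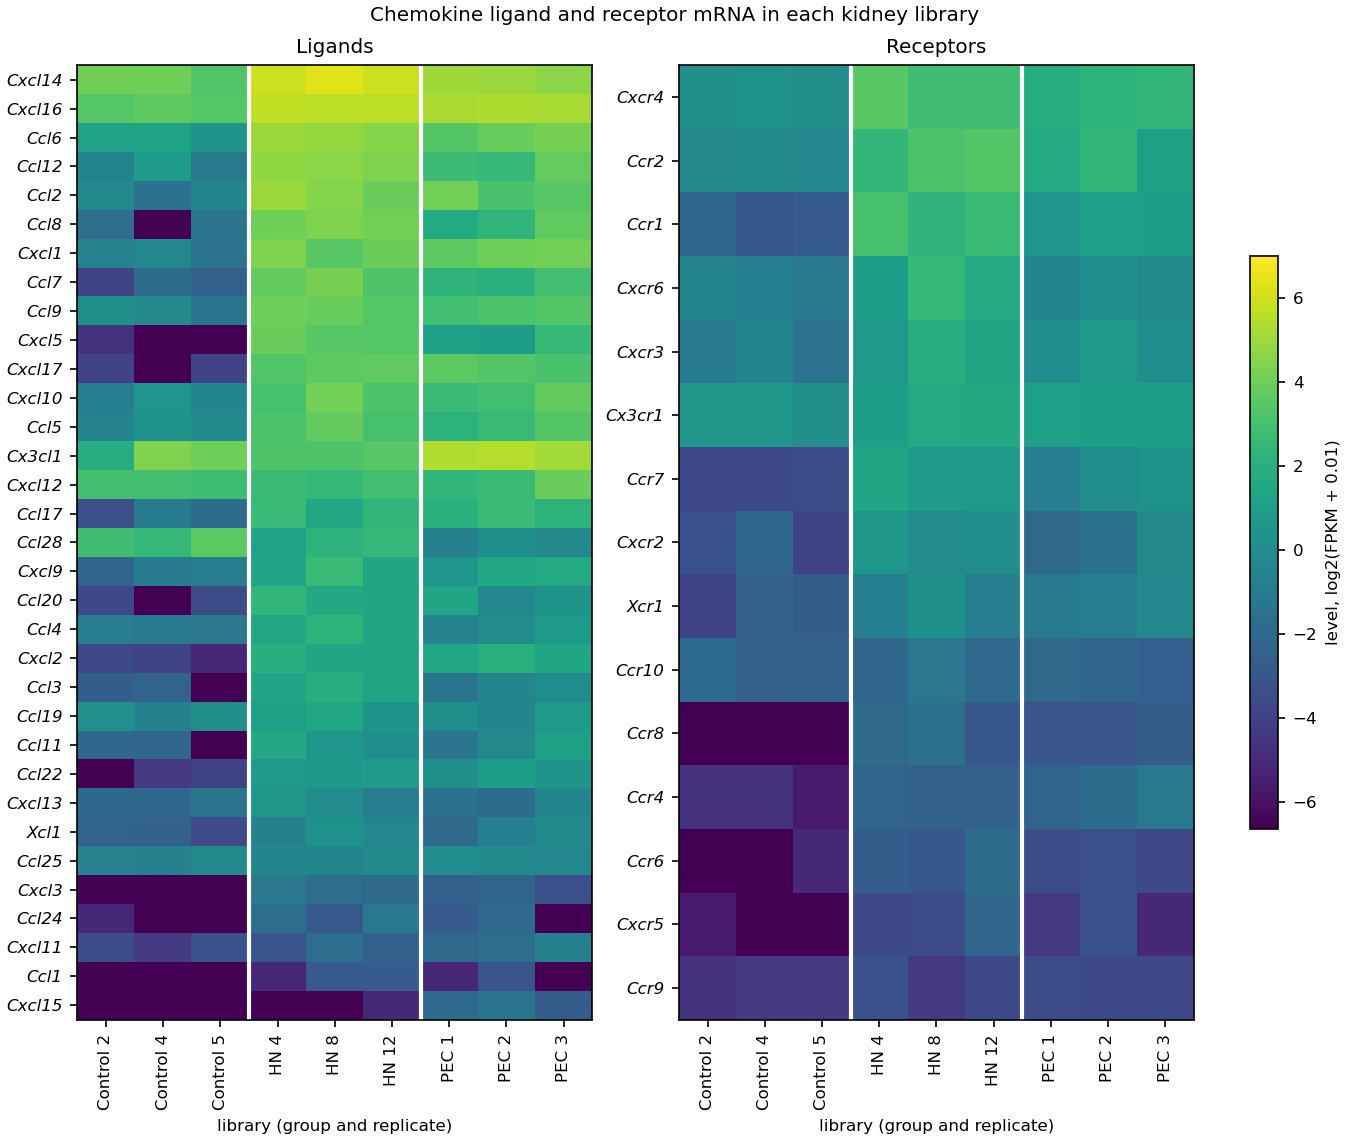
The heat map gives log2(FPKM + 0.01) of the 33 ligands tested and 15 of the receptors, 1 column for each of the 9 mice. Most members are darkest in the Control columns and brightest in the HN columns, while Ccl28 runs the other way, from a mean of 8.07 FPKM in the Control to 4.13 in HN and 0.85 in PEC.

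The heat map of levels by mouse shows that mice of 1 group resemble each other for most members. Exceptions include Cx3cl1 in Control replicate 2 and Cxcl12 in PEC replicate 3. Ccl3, Ccl8 and Ccl11, each at 0 FPKM in a Control mouse, are others on this scale.

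PEC against HN asks what pectolinarigenin changes in diseased kidneys. A minority of the chemokine genes differed, and most of those were lower with PEC. Of the 49 tested members, 10 were called lower, among them the ligands Ccl4, Ccl7, Ccl28, Cxcl5 and Cxcl14 and the receptors Ccr1, Ccr2, Cxcr4 and Cxcr6, and 2 were called higher, Cx3cl1 and Cxcl15. Over all genes tested, 15.3% were called lower and 13.4% higher, against 20.4% and 4.08% of the tested members. How far the share called lower lies from that of all genes depends on the method, with DESeq2 at 30.6% against 17.0%, offsets for GC content and length at 26.5% (13 of 49) against 2346 of 21358 genes, limma on log2(FPKM + 1) at 47.4% against 21.9% and on log2(FPKM + 0.1) at 44.7% against 27.4%, library totals at 28.6% against 21.6%, and 10.2% against 13.2% without PEC replicate 1. With edgeR and TMM it was 15.2% of the tested ligands and 31.2% of the tested receptors. Summed ligand FPKM was 239.7 ± 21.3 (SD, n = 3) with PEC against 349.8 ± 33.9 in HN, and summed receptor FPKM 19.2 ± 2.85 against 42.2 ± 2.43. Divided by the TMM factors these are 231 ± 19.7 against 294 ± 33.9 and 18.5 ± 2.93 against 35.4 ± 1.55.

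The median log2 fold change over the tested members was -0.69, beside -0.02 over all genes. HN mice also serve in HN against Control, so the comparisons share samples and their values are set side by side only. With library totals in place of TMM the median of all genes moves by -0.20, and the share of all calls that are higher goes from 46.8% (2875 higher, 3266 lower) to 29.6% (1951 higher, 4631 lower). The count of members called lower was 5 without PEC replicate 1, 7 without HN replicate 8 or PEC replicate 2, and up to 13 without PEC replicate 3.

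Among the receptors, Ccr1 fell, with a log2 fold change of -1.56 ± 0.29 (edgeR adjusted p = 0.00281), 2.94-fold lower, with every PEC mouse far below every HN mouse. Cxcr6 was lower at -1.77 ± 0.35 (edgeR adjusted p = 0.00406), with all PEC mice near the Control level. Ccr2 was lower at -0.96 ± 0.30 (edgeR adjusted p = 0.0332) and Cxcr4 at -0.75 ± 0.24 (edgeR adjusted p = 0.0375). No PEC mouse overlapped an HN mouse in FPKM for any of these 4 receptors, though for Ccr2 PEC replicate 2 (5.17) came close to HN replicate 4 (5.28). After TMM scaling, PEC replicate 2 lay above HN replicate 4 for Ccr2. With offsets for GC content and transcript length the call of Ccr2 was lost (-0.23, and -0.19 with offsets not centred by library). It was also lost when the fit held only the groups compared (-0.96), and without HN replicate 8 (-0.92), HN replicate 12 (-0.78), PEC replicate 1 (-0.92) or PEC replicate 3 (-0.69). The call of Cxcr4 was lost when the fit held only the groups compared (-0.74), and without Control replicate 2 (-0.75), Control replicate 4 (-0.75), HN replicate 4 (-0.44), PEC replicate 1 (-0.60) or PEC replicate 2 (-0.78).

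Among the ligands, Ccl28 fell further, from 4.13 FPKM in HN to 0.85 FPKM with PEC, a log2 fold change of -2.06 ± 0.38 (edgeR adjusted p = 0.00294). Cxcl14 was lower at -0.99 ± 0.20 (edgeR adjusted p = 0.00411), 1.98-fold, and each PEC mouse was well under each HN mouse and above each Control mouse. Cxcl5 was lower at -1.68 ± 0.49 (edgeR adjusted p = 0.0231), Ccl4 at -1.39 ± 0.39 (edgeR adjusted p = 0.0203) and Ccl7 at -1.12 ± 0.38 (edgeR adjusted p = 0.0444). For each of these the FPKM of PEC and HN mice did not overlap. The call of Cxcl5 was lost without HN replicate 4 (-1.49), PEC replicate 1 (-1.48) or PEC replicate 2 (-1.43). The call of Ccl4 was lost without HN replicate 8 (-1.12), PEC replicate 1 (-1.13) or PEC replicate 2 (-1.30). The call of Ccl7 was lost with no filter on low counts (-1.16), and without Control replicate 5 (-1.13), HN replicate 4 (-1.13), HN replicate 8 (-0.89), PEC replicate 1 (-1.02) or PEC replicate 2 (-0.96).

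Several related ligands did not pass. Ccl2 was at a mean of 12.2 ± 4.23 FPKM with PEC and 22.7 ± 8.17 FPKM in HN, PEC replicate 1 overlapped HN replicate 12, and the change was not called (-0.69 ± 0.39 (edgeR adjusted p = 0.193)). By quantitative PCR, the study reported MCP-1 mRNA as raised in HN and lowered by PEC. Which mice its PCR used is not given in the sources used here. In the RNA-seq data, of 22 alternatives, limma on log2(FPKM + 1) alone called Ccl2 lower (-0.84). Ccl12 (-1.27 ± 0.47 (edgeR adjusted p = 0.0618)), Ccl3 (-1.78 ± 0.72 (edgeR adjusted p = 0.0783)), Ccl6 (-0.73 ± 0.26 (edgeR adjusted p = 0.0502)), Ccr7 (-0.86 ± 0.33 (edgeR adjusted p = 0.0652)) and Cxcr3 (-0.94 ± 0.38 (edgeR adjusted p = 0.0778)) were not called either. DESeq2, limma at both pseudocounts and offsets for GC content and length called all 5 of them lower. Over all 22 alternatives, Ccl12 and Ccl6 were called lower in 12, Cxcr3 in 9, and Ccl3 and Ccr7 in 8 each. Library totals called Ccl12 (-1.46), Ccl6 (-0.92), Ccr7 (-1.05) and Cxcr3 (-1.15), and fits of only the groups compared called Ccl12 (-1.26), Ccl3 (-1.78) and Ccl6 (-0.72). With 1 mouse left out, Ccl12 was called without Control replicate 4 (-1.27), Control replicate 5 (-1.27) or PEC replicate 3 (-1.73), Ccl3 without Control replicate 5 (-1.79), Ccl6 without Control replicate 5 (-0.73) or PEC replicate 3 (-0.94), Ccr7 without PEC replicate 3 (-1.09) and Cxcr3 without HN replicate 4 (-1.20) or PEC replicate 2 (-1.26). A p that misses the threshold does not show that the levels were equal.

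Other members had no call. Cxcl1 (0.16 ± 0.29 (edgeR adjusted p = 0.695)), Cxcl2 (0.29 ± 0.28 (edgeR adjusted p = 0.451)), Cxcl10 (-0.11 ± 0.40 (edgeR adjusted p = 0.853)) and Cxcl17 (0.04 ± 0.34 (edgeR adjusted p = 0.934)) had log2 fold changes near 0, with PEC and HN mice overlapping. Ccl17 (0.37 ± 0.43 (edgeR adjusted p = 0.537)) and Ccl22 (0.06 ± 0.55 (edgeR adjusted p = 0.945)) overlapped as well. Ccl5 was at -0.32 ± 0.34 (edgeR adjusted p = 0.505), Ccl9 at -0.43 ± 0.30 (edgeR adjusted p = 0.293), Ccl8 at -1.16 ± 0.67 (edgeR adjusted p = 0.206) and Ccl20 at -0.98 ± 0.65 (edgeR adjusted p = 0.264). With 1 mouse left out, Ccl8 ranged from -1.92 to -0.82. Cxcl16 was at -0.16 ± 0.07 (edgeR adjusted p = 0.108), Cxcl3 at -0.86 ± 0.45 (edgeR adjusted p = 0.175) and Cxcr2 at -1.05 ± 0.55 (edgeR adjusted p = 0.165), and Cxcr2 was called lower without PEC replicate 3 (-1.75) and with limma at a pseudocount of 0.1 (-1.23). With limma Ccl20 was called lower at both pseudocounts (-0.87 and -1.24) and Ccl8 at a pseudocount of 1 (-1.44).

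The rest ranged in the same way. Cxcl11 was the highest of the members without a call, at 1.20 ± 0.51 (edgeR adjusted p = 0.0923), and was called higher with offsets not centred by library (1.47) and with an unadjusted p. It was followed by Ccr4 at 0.89 ± 0.43 (edgeR adjusted p = 0.136) and Cxcl12 at 0.63 ± 0.34 (edgeR adjusted p = 0.179). Cxcl9, Cx3cr1, Xcl1, Xcr1, Ccl25, Ccr9, Ccr10, Ccl11 and Ccl19 had log2 fold changes from -0.65 to 0.43, and of these Ccl25 was called higher with offsets for GC content and length (0.75, and 0.78 not centred by library). Ccl1, Ccl24, Cxcl13, Ccr6 and Cxcr5, all low in HN, had log2 fold changes from -0.98 to -0.86, and Ccr8 was at or under the floor with PEC.

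Cx3cl1 was the abundant member called higher with PEC. Each PEC mouse was above every HN and every Control mouse, at 34.4 to 45.0 FPKM, and against HN the log2 fold change was 2.25 ± 0.50 (edgeR adjusted p = 0.00718), a 4.75-fold rise. With PEC it held 17.1% of the summed ligand FPKM and was the first ligand by level, ahead of Cxcl16 (16.1%) and Cxcl14 (12.6%). Its receptor Cx3cr1 was not called (-0.21 ± 0.19 (edgeR adjusted p = 0.412)).

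**Figure D3:**
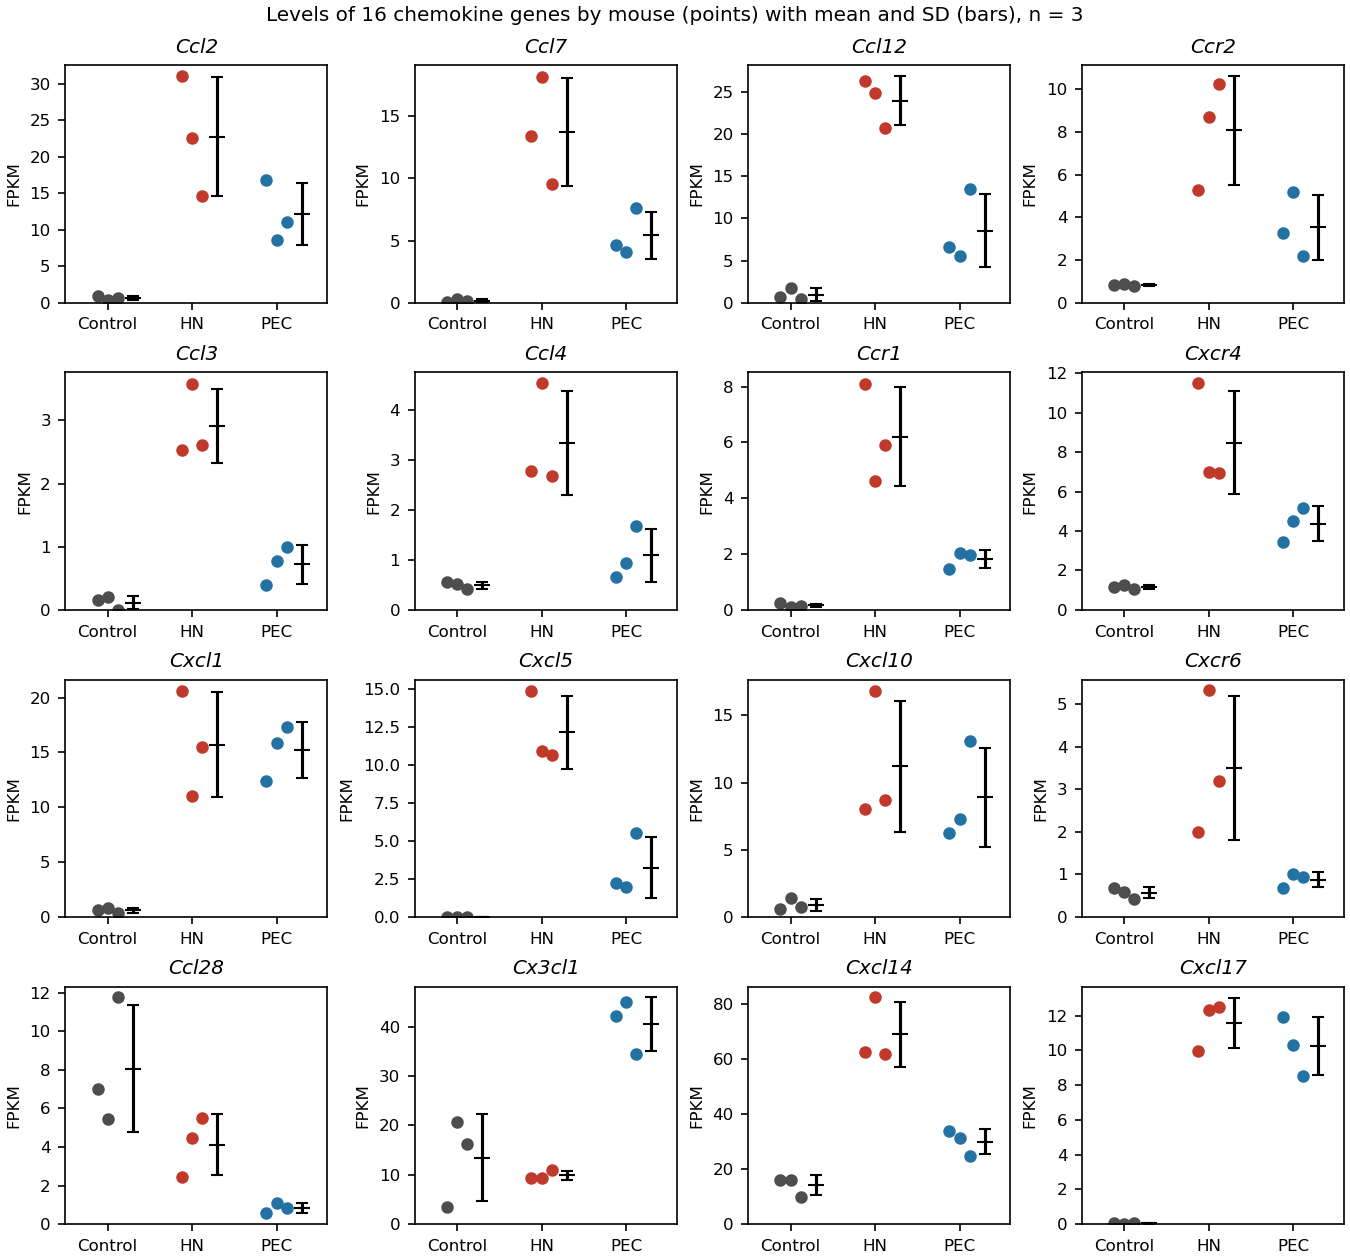
Dots give the FPKM of single mice in Control, HN and PEC for 16 members, with the mean and 1 SD of 3 mice, on a scale of its own for each gene. Ccr1 goes from a mean of 0.163 FPKM in the Control to 6.21 in HN and 1.82 with PEC, and Cx3cl1 from 13.5 to 9.92 and 40.5.

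In the dots by mouse, PEC mice lie between Control and HN for most of the 16 members, below both for Ccl28 and above both for Cx3cl1.

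Cxcl15, a ligand best known from lung epithelium, was called higher with PEC (edgeR adjusted p = 0.018), from 48, 60 and 22 counts against 0, 0 and 5 in HN, under the floor. The call was lost without HN replicate 4 or 8 or PEC replicate 1 or 2. Transcripts of lung epithelium appeared in the same libraries, from a list of 8 genes chosen after their values were seen among 16 candidates, so it is a description. Summed over the list, the level was 0.14, 0.09 and 0.06 FPKM in the Control, 2.85, 3.37 and 3.33 FPKM in HN and 57.3, 51.7 and 21.2 FPKM in PEC. The most abundant in PEC was Scgb1a1, with counts of 0 in all 3 mice of the Control, 0, 0 and 4 of HN and 2076, 1577 and 541 of PEC. Sftpc had counts of 0 in all 3 mice of the Control, 0 in all 3 mice of HN and 193, 214 and 30 of PEC, Sftpa1 of 0 in all 3 mice of the Control, 0 in all 3 mice of HN and 108, 106 and 27 of PEC and Sftpb of 0 in all 3 mice of the Control, 0, 4 and 0 of HN and 91, 71 and 12 of PEC. Scgb3a2 had counts of 0 in all 3 mice of the Control, 0 in all 3 mice of HN and 13, 8 and 2 of PEC, and Bpifa1 at most 4 in any library. Sftpd, with 0, 4 and 4 of the Control, 395, 549 and 457 of HN and 185, 96 and 246 of PEC, and Ager, with 27, 13 and 8 of the Control, 154, 165 and 174 of HN and 260, 257 and 228 of PEC, were present in HN too. Their part in the Cxcl15 result was not tested.

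PEC against Control asks what difference from untreated kidneys remains under pectolinarigenin. Most chemokine genes were still above the Control. Of the 49 tested members, 31 were called higher, 22 ligands and 9 receptors, and Ccl28 alone was called lower. Over all genes tested, 18.9% were called higher and 17.4% lower, against 63.3% and 2.04% of the tested members. The median log2 fold change was 2.55, and 1.75 with the floor in place of the Control level for the same 13 genes, beside 0.04 over all genes. Library totals move the median of all genes up by 0.36 and the share of calls that are higher from 52.1% (4053 higher, 3731 lower) to 76.6% (6415 higher, 1960 lower), with 41 members called higher.

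Ccl2 was at 3.88 ± 0.45 (edgeR adjusted p = 0.000138), 14.7-fold above the Control, Ccl7 at 4.63 ± 0.47 (edgeR adjusted p = 7.31e-05) and Ccl12 at 2.82 ± 0.52 (edgeR adjusted p = 0.0019). Their receptor Ccr2 was at 1.75 ± 0.31 (edgeR adjusted p = 0.00171). Each PEC mouse was above each Control mouse for all 4. With 1 mouse left out, Ccl12 ranged from 2.36 to 3.58. Cxcl1 was at 4.33 ± 0.34 (edgeR adjusted p = 2.12e-05) and Cxcl2 at 5.42 ± 0.36 (edgeR adjusted p = 1.01e-05), again without overlap. Cxcl5 and Cxcl17 were called higher (edgeR adjusted p = 5.92e-05 and 1.11e-05) against Control counts under the floor. Cxcl3 was at least 3.01-fold and Cxcl15 at least 3.22-fold higher with PEC than in the Control, by the same floor.

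Ccr1 was at 3.15 ± 0.32 (edgeR adjusted p = 6.92e-05), Ccr7 at 3.32 ± 0.38 (edgeR adjusted p = 0.000125) and Cxcr4 at 1.59 ± 0.25 (edgeR adjusted p = 0.000811). These receptors thus stayed above the Control in all PEC mice. Ccl6 was at 2.51 ± 0.27 (edgeR adjusted p = 0.0001), Ccl9 at 3.20 ± 0.33 (edgeR adjusted p = 8.05e-05), Ccl5 at 2.55 ± 0.37 (edgeR adjusted p = 0.000517) and Cxcl16 at 1.47 ± 0.08 (edgeR adjusted p = 4.24e-06). Ccl17 was at 3.82 ± 0.51 (edgeR adjusted p = 0.000313) and Ccl8 at 4.63 ± 0.84 (edgeR adjusted p = 0.00178). All of these ligands were higher in each PEC mouse than in any Control mouse. With 1 mouse left out, Ccl8 ranged from 3.88 to 5.27. Ccl22, Ccl20 and Ccr4 were called higher (edgeR adjusted p = 0.000379, 0.00181 and 0.000854) against a Control at or under the floor.

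Cxcl9 was at 2.32 ± 0.49 (edgeR adjusted p = 0.00407) and Cxcl10 at 2.96 ± 0.44 (edgeR adjusted p = 0.000583). Cxcl11 was called higher here, at 2.01 ± 0.53 (edgeR adjusted p = 0.0123), with PEC replicate 3 the highest mouse and no overlap with the Control. Cxcl14 was at 0.78 ± 0.20 (edgeR adjusted p = 0.0104), a call lost with offsets for GC content and length (0.44, and 0.26 not centred by library) and at a fold of at least 2. Xcr1 was at 1.91 ± 0.44 (edgeR adjusted p = 0.00662), a call lost with limma at a pseudocount of 1 (0.51), and Ccr8 was called (edgeR adjusted p = 0.00329) on counts at or under the floor. The calls of Ccl3 (2.27 ± 0.79 (edgeR adjusted p = 0.0418)) and Ccr6 (edgeR adjusted p = 0.0314, Control under the floor) were weak. That of Ccl3 was lost in 10 of 22 alternatives, with no filter (2.27), only the groups compared (2.29), offsets for GC content and length (2.08, and 1.90 not centred by library), and without Control replicate 2 (2.51), HN replicate 4 (2.27), HN replicate 8 (2.27), HN replicate 12 (2.27), PEC replicate 2 (2.22) or PEC replicate 3 (1.98). That of Ccr6 was lost in 11 of 18, with no filter, only the groups compared, offsets not centred by library, and without Control replicate 2 or 4, any 1 HN mouse or any 1 PEC mouse.

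Members without a call against the Control included Cxcr6 (0.31 ± 0.35 (edgeR adjusted p = 0.501)), Ccl4 (0.83 ± 0.40 (edgeR adjusted p = 0.12)), Cxcr3 (0.96 ± 0.38 (edgeR adjusted p = 0.0675)), Cxcr2 (1.54 ± 0.58 (edgeR adjusted p = 0.0531)) and Cx3cl1 (1.27 ± 0.49 (edgeR adjusted p = 0.059)). For Cxcr6 the PEC and Control mice lay at like levels. Cx3cl1 was called higher in 9 of 22 alternatives, with DESeq2 (1.29), library totals (1.63), limma (1.79 and 1.91 at pseudocounts of 1 and 0.1), a mean count of at least 50 (1.31), counts divided by 4 (1.29), an unadjusted p, and without Control replicate 2 (0.82) or Control replicate 4 (1.68). Cxcr2 was called in 8, with DESeq2 (1.56), library totals (1.89), limma at a pseudocount of 0.1 (1.26), a mean count of at least 50 (1.59), counts divided by 4 (1.54), an unadjusted p, and without Control replicate 4 (2.17) or PEC replicate 1 (1.86). Cxcr3 was called in 4, with DESeq2 (0.98), library totals (1.30), limma at 0.1 (1.12) and an unadjusted p, and Ccl4 in 2, library totals (1.18) and limma at 0.1 (0.93). Cxcl12 (-0.11 ± 0.34 (edgeR adjusted p = 0.811)) was called lower without PEC replicate 3 (-0.72). Low members without a call were Ccl1, Ccl11, Ccl24, Cxcr5 and Xcl1. DESeq2, library totals and an unadjusted p called all of these but Ccl24, limma at 0.1 called Ccl11 and Xcl1, and counts divided by 4 called Ccl11. With 1 mouse left out, Ccl1 and Ccl24 were called without PEC replicate 3, Ccl11 and Xcl1 without PEC replicate 1 and Cxcr5 without Control replicate 2. Ccl19, Ccl25, Ccr9, Ccr10, Cx3cr1 and Cxcl13 had log2 fold changes from -0.29 to 0.77, and of these Cx3cr1 was called with library totals (0.65) and limma at 0.1 (0.59), and Ccr9 with library totals (1.13) and offsets for GC content and length (1.18). Ccl28 was lower at -3.58 ± 0.41 (edgeR adjusted p = 0.000128), 11.9-fold lower, with every PEC mouse under every Control mouse.

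**Figure D4:**
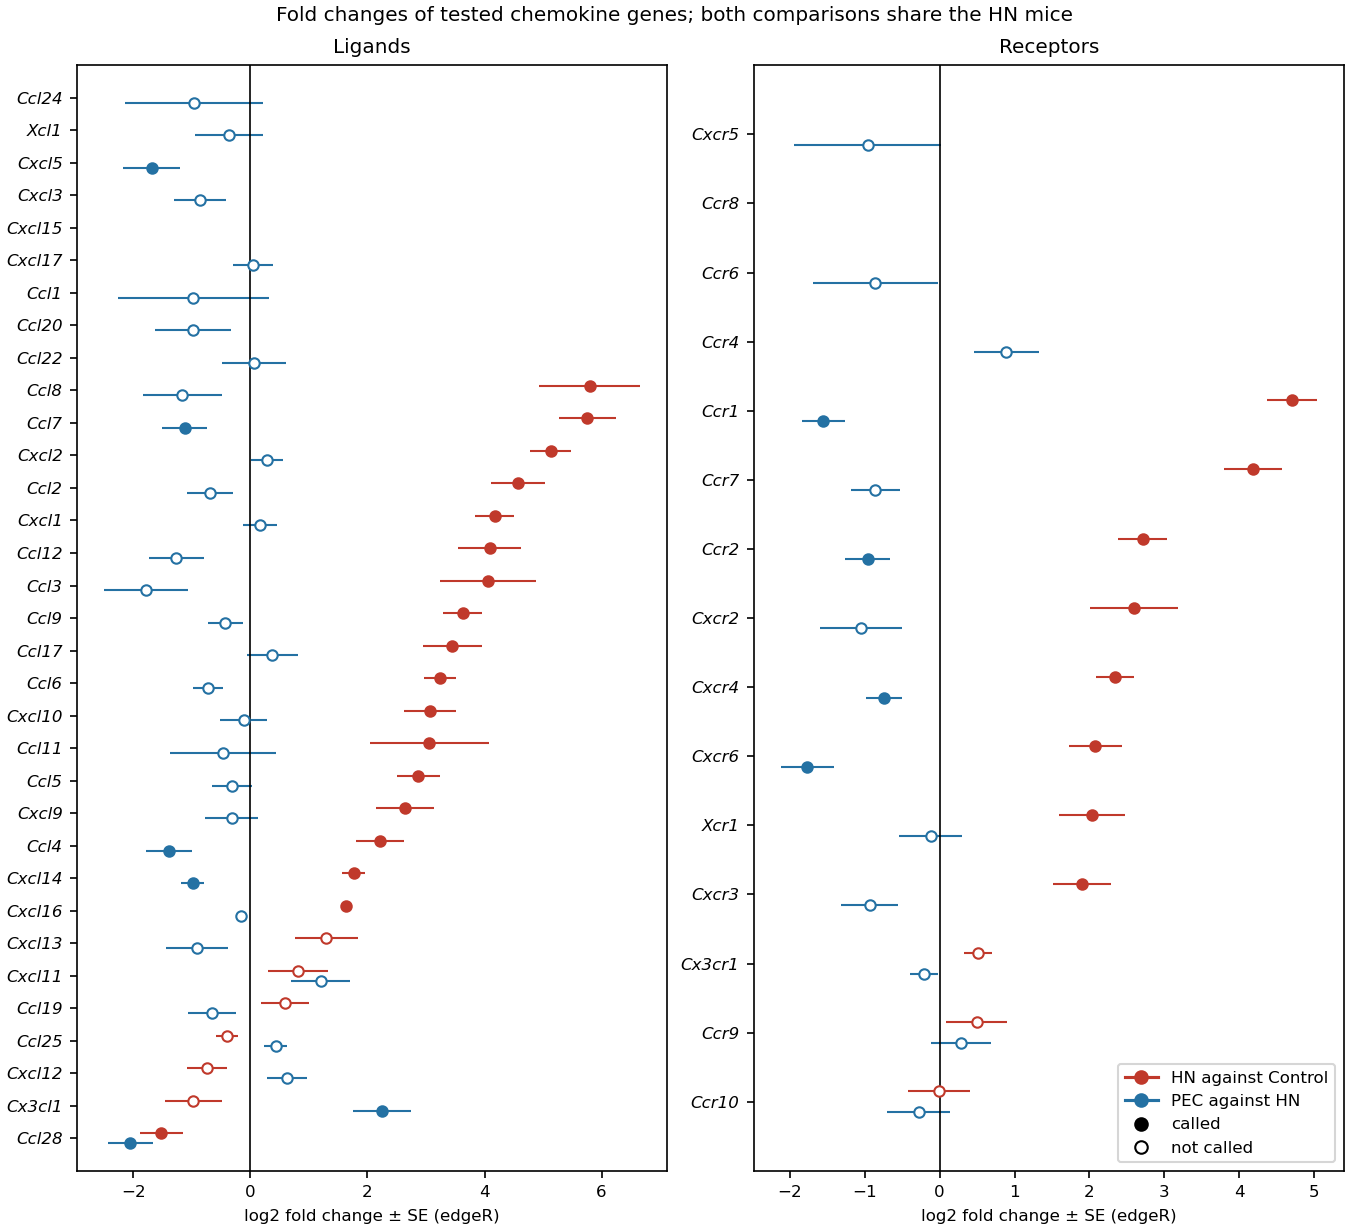
Points give the log2 fold change and 1 SE from edgeR for HN against Control and for PEC against HN, filled where called, 1 line for each of the same 33 ligands and 15 receptors, and no point is drawn where all mice of a group compared are at or under the floor of 12 counts. HN against Control runs from -1.52 for Ccl28 to 5.80 for Ccl8, and PEC against HN from -2.06 for Ccl28 to 2.25 for Cx3cl1.

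The plot of fold changes shows the HN against Control points mostly far above 0 and the PEC against HN points mostly near or below it.

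The genes sit in clusters, which the choice by symbol did not use. In HN, 17.7% of all genes tested and 77.6% of the tested members were called higher. With PEC against HN, 15.3% and 20.4% were called lower. The counts by cluster stand beside these shares and were not tested against them. On chromosome 11, 6 ligands lie within chr11:82035571-82305690 (Ccl2, Ccl7, Ccl11, Ccl12, Ccl8 and Ccl1), and all 6 were called higher in HN, with log2 fold changes from 3.06 to 5.80 apart from Ccl1, which had no counts in the Control. A further 5 lie within chr11:83525778-83664683 (Ccl5, Ccl9, Ccl6, Ccl3 and Ccl4), all called higher, from 2.22 to 4.06. The ELR ligands lie within chr5:90759360-90905938, where 4 of 5 rose, and Cxcl9, Cxcl10 and Cxcl11 within chr5:92321347-92365485, where 2 of 3 rose. Ccl22, Cx3cl1 and Ccl17 are neighbours within chr8:94745590-94812036, where Ccl17 and Ccl22 rose in HN while Cx3cl1 did not. Among receptors, Ccr9, Cxcr6, Xcr1, Ccr1, Ccr3 and Ccr2 lie near each other on chromosome 9, where Cxcr6, Xcr1, Ccr1 and Ccr2 rose in HN, and Cxcr6, Ccr1 and Ccr2 were lower with PEC.

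Some members share sequence with other genes or lie on top of them, and the sources used here do not say how such reads or their strand were counted. Cxcl3 and Cxcl2 share a stretch of 320 bases at 91.6% identity. Cxcl16 overlaps Zmynd15 on the opposite strand over 552 bases of its transcript, with Zmynd15 at 426 to 2950 counts and Cxcl16 at 2675 to 13538. Cx3cr1 overlaps Wdr48, with 2617 to 4803 counts, and Gorasp1, with 1871 to 2653, against its own 408 to 1307. Cxcr6 at 72 to 928 counts overlaps Fyco1 at 2760 to 5876, and Ccl25 at 376 to 652 overlaps Elavl1 at 3264 to 6523. Ccr9, at 23 to 84 counts, overlaps Lztfl1 at 999 to 3237, Slc6a20a at 1559 to 2360 and Gm10052 at 542 to 1640. Ccr10, at 19 to 65, overlaps Cntnap1 at 185 to 512, and Cxcl11, at 14 to 149, overlaps Art3 at 109 to 344.

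Lists of markers were counted in the same way. Of all genes tested, 17.7% were called higher and 14.7% lower in HN, and 13.4% higher and 15.3% lower with PEC against HN, and counts over lists stand beside these shares. All 10 monocyte and macrophage markers were called higher in HN and 7 were lower with PEC than in HN. Their summed level was 39.7, 47.9 and 38.1 FPKM in the Control, 621, 722 and 568 FPKM in HN and 211, 241 and 341 FPKM in PEC, with C1qa the most abundant in HN and PEC and C1qb in the Control. Ptprc, the common leukocyte marker, had a mean of 0.593 FPKM in the Control, 4.75 in HN and 1.18 with PEC, with log2 fold changes of 2.46 ± 0.38 (edgeR adjusted p = 0.000693) in HN and -1.79 ± 0.37 (edgeR adjusted p = 0.00456) with PEC against HN. All 6 T cell markers were higher in HN and 2, Cd3d and Cd4, were lower with PEC. Their sums were 0.9, 1.67 and 1.52 FPKM in the Control, 8.35, 16.6 and 10.8 FPKM in HN and 4.78, 6.39 and 6.16 FPKM in PEC, with Cd8b1 the most abundant in the Control and HN and Cd4 in PEC. Their part in the chemokine results was not tested.

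Neutrophil markers differed among themselves. Of 8, 4 were tested and 1, Csf3r, rose in HN, while Ly6g, Mpo, Elane and Camp had at most 8 counts in any library. The list summed to 6.69, 12.6 and 4.26 FPKM in the Control, 31.9, 17.6 and 19.9 FPKM in HN and 8.59, 10.1 and 27.99 FPKM in PEC, with S100a9 the most abundant. Eosinophil markers summed to 0.02, 0.09 and 0.05 FPKM in the Control, 0.84, 0.8 and 0.75 FPKM in HN and 0, 0.13 and 0.07 FPKM in PEC, with Siglecf called higher in HN, Prg2 lower with PEC than in HN, and Epx untested. B cell markers summed to 0.41, 0.31 and 0.53 FPKM in the Control, 2.34, 3.34 and 2.78 FPKM in HN and 1.87, 1.46 and 1.74 FPKM in PEC, led by Cd79b, with 2 of 4 higher in HN. Dendritic cell markers summed to 2.81, 2.77 and 2.4 FPKM in the Control, 10.9, 13.3 and 11.8 FPKM in HN and 13.8, 14.8 and 10.4 FPKM in PEC, led by Itgax in HN and PEC and Zbtb46 in the Control, with 2 of 5 higher in HN. Of 3 NK cell markers, Klrb1c (0.89) and Gzma (0.83) were tested without a call in HN, and the sums were 0.15, 0.55 and 0.41 FPKM in the Control, 0.53, 1.18 and 0.88 FPKM in HN and 0.23, 0.32 and 1.70 FPKM in PEC, led by Gzma. The part of these cells in the chemokine results was not tested.

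Kidney tubule markers moved the other way. Of 7 tubule markers, 6 were lower in HN and 4 of the 7 were higher with PEC than in HN, with sums of 2185, 2416 and 2139.5 FPKM in the Control, 1969.8, 1746 and 1946 FPKM in HN and 1987, 2118 and 1815 FPKM in PEC. Umod, the most abundant, was not called in any comparison. All 4 fibroblast markers were higher in HN and 3 were lower with PEC, with sums of 21.8, 21.3 and 14.5 FPKM in the Control, 71.7, 73.4 and 67.5 FPKM in HN and 36.2, 38.7 and 38.1 FPKM in PEC, led by Pdgfrb. Podocyte markers, led by Podxl, had log2 fold changes from -0.15 to 0.20 in HN against Control and from -0.36 to 0.31 in PEC against HN, without a call, and sums of 55.6, 54.6 and 53.9 FPKM in the Control, 79.5, 72.7 and 69.9 FPKM in HN and 76.3, 73.9 and 66.9 FPKM in PEC. Endothelial markers had Kdr lower in HN and Emcn higher with PEC than in HN, with sums of 31.3, 35.2 and 35.1 FPKM in the Control, 42.2, 44.4 and 42.7 FPKM in HN and 31.2, 34.9 and 47.8 FPKM in PEC. Markers of tubule cells were abundant in every library.

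Genes that act with the chemokines were counted from lists. Of 22 genes of chemokine receptor signalling, 17 were higher in HN, beside 17.7% of all genes, and with PEC against HN 6 were lower, beside 15.3%, and 1 higher, Arrb1, at 6.03, 1.53 and 5.56 FPKM with PEC and 1.90, 1.97 and 1.67 FPKM in HN, so that PEC replicate 2 lay below every HN mouse. The largest called rise in HN was Rgs1, a brake on G protein signalling, at 4.35 ± 0.83 (edgeR adjusted p = 0.0025), and the smallest Grk6 at 0.65 ± 0.23 (edgeR adjusted p = 0.0459). Gnai2, the most abundant in HN and PEC but below Rac1 and Gnai3 in the Control, is the G protein subunit most receptors of this kind use, and was at 35.1, 37.3 and 29.3 FPKM in the Control, 91.7, 93.03 and 89.2 FPKM in HN and 57.1, 59.4 and 57.2 FPKM in PEC, with a log2 fold change of 0.90 ± 0.09 (edgeR adjusted p = 3.99e-05). Of 18 tested inducers and NF-kB or interferon regulators, 14 were higher in HN, beside 17.7% of all genes. With PEC 3 of the 18 were lower, namely Ifngr1, Nfkb1 and Nfkbia, a share near the 15.3% of all genes. Tnfrsf1a, the most abundant of them, was at 25.1, 24.5 and 18.5 FPKM in the Control, 62.6, 56.1 and 55.1 FPKM in HN and 41.6, 45.9 and 46.1 FPKM in PEC, with a log2 fold change of 0.82 ± 0.12 (edgeR adjusted p = 0.000478). That was the smallest rise called, and the largest with counts in the Control was Tnf at 3.50 ± 0.49 (edgeR adjusted p = 0.000438).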

How the data were processed

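The deposited table holds counts per gene, whole numbers made by the authors, for each of 9 libraries. It also holds the authors' FPKM for each gene and library. The submitters' notes name Bowtie 0.12.2 and builds mm8 and mm9, whereas the table's coordinates are those of GRCm38: all 52 members were found in GENCODE M21, 48 with identical coordinates. How strand and reads with several matches were handled is not given in the sources used here. Counts of all genes were fitted in R 4.3.3 with edgeR 4.0.16 (filterByExpr, TMM, glmQLFit, glmQLFTest), 3 groups in 1 fit without further terms, and 21392 genes were tested. Adjusted p values are Benjamini-Hochberg over all genes tested, and a call needed a fold of at least 1.5 and an adjusted p of at most 0.05. SE is the size of the log2 fold change divided by the square root of F. Alternatives used limma 3.58.1 and DESeq2 1.42.0. Sequences were compared with blastn 2.17.0 (at least 90% identity over 200 bases), and plots drawn with matplotlib 3.10.9. The fit was also run on simulated counts in which 200 of 20805 genes were changed 3-fold in HN. It recovered 92% of them, with 8 false calls. That simulation gave all genes the same spread and changed far fewer genes than differ here, so it does not show how the fit performs on these data. Members with a mean of at least 1 FPKM in a group or called in any comparison are given by mouse, and the others by range and counts. Other lists are those of signalling genes, inducers, adhesion genes, genes outside the symbol rules and cell markers. From all but the markers, the gene with the highest mean FPKM over all 9 libraries is given. The genes called in HN with the largest and smallest fold are given too, and some further genes, such as Vcam1 and Icam1. For marker lists, sums and counts of calls are given, in most with the most abundant gene. Of the members counted, 1 is not reported here by name. Members and lists were chosen with earlier results of these data known. Replicates are separate mice. The p values rest on a spread estimated over all 9 mice in 1 fit, so a mouse outside a comparison can change its calls. Floors cover counting error only.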

Additional observations from a re-analysis of the deposited data

How the results depend on the processing

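Called members were recounted under RLE factors, library totals, DESeq2, limma on log2 FPKM plus 1 or 0.1, no filter, a mean count of at least 50, fits of only the groups compared, offsets for GC content and length, an unadjusted p, a fold of at least 2, and leaving out each mouse. Chosen after seeing the data were counts divided by 4 and offsets not centred by library, the form in which the offsets were first run. HN against Control gave 30 to 42 members higher and PEC against Control 25 to 41, within 1.5 times of 38 and 31. The number of members tested differed between settings. For HN against Control, 30 was of 38 (78.9%, beside 20.2% of all genes) with a mean count of at least 50. Library totals gave 42 of 49 (85.7%, beside 36.0%). For PEC against Control, 25 was of 38 (65.8%, beside 23.1%) with limma at plus 1, and library totals gave 41 of 49 (83.7%, beside 30.0%). The single member lower in HN became 0 with library totals, 2 with only the groups compared and 2 with uncentred offsets. For PEC against HN, the 2 higher became 1 with limma at either pseudocount, 1 with a mean count of at least 50, 1 with counts divided by 4 and 4 with uncentred offsets, and the 10 lower became 18 (plus 1) and 17 (plus 0.1) with limma and 6 at a fold of at least 2. Higher fold limits call fewer genes by construction, and for the others the cause was not tested. Leaving out 1 mouse gave 33 to 38 higher and 1 to 2 lower for HN against Control, 1 to 2 higher and 5 to 13 lower for PEC against HN, and 29 to 33 higher and 1 to 2 lower for PEC against Control. By gene and alternative, over the 49 tested members, 979 of 1035 values for HN against Control kept both direction and side of the threshold, with 28 no longer called, 16 newly called and 12 uncalled values turned. For PEC against HN these were 912 of 1037, 35, 59 and 31, and for PEC against Control 944 of 1034, 25, 48 and 17. No called value reversed. No paired analysis was possible, because the labels give no pairing. Depth limits Ccl1, Ccl24, Cxcl15, Ccr6, Ccr8 and Cxcr5, which lie near the floor of 12 counts.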

Other observations

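Genes of leukocyte adhesion and entry, through which chemokine-guided cells leave the blood, were counted as a list. Of 13 tested, 10 were higher in HN than in the Control, beside 17.7% of all genes, and 9 were lower with PEC than in HN, beside 15.3%. Vcam1, which binds leukocyte integrins on endothelium, was at 1.23, 1.33 and 1.02 FPKM in the Control, 46.5, 45.4 and 37.5 FPKM in HN and 22.5, 22.9 and 16.8 FPKM in PEC, with log2 fold changes of 4.64 ± 0.17 (edgeR adjusted p = 1.09e-06) in HN against Control and -0.84 ± 0.15 (edgeR adjusted p = 0.00223) in PEC against HN. Itgam, an integrin of myeloid cells, had the largest called rise in HN, at 5.45 ± 0.48 (edgeR adjusted p = 2.73e-05). Itgb1, the most abundant, had the smallest, at 0.63 ± 0.08 (edgeR adjusted p = 0.000263), from 77.7, 78.8 and 71.2 FPKM in the Control, 175, 168 and 166 FPKM in HN and 68.2, 77.4 and 69.2 FPKM in PEC. Icam1 was higher in HN at 1.67 ± 0.15 (edgeR adjusted p = 2.98e-05) and was not called with PEC against HN (0.17 ± 0.15 (edgeR adjusted p = 0.391)).

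Of 11 atypical receptors and chemokine-like genes outside the symbol rules, 5 were higher in HN and 1, Ackr3, lower, beside 17.7% and 14.7% of all genes. Ackr3, a scavenger of Cxcl12 and the most abundant of the list in the Control and HN, was at 24.5, 18.8 and 20.5 FPKM in the Control, 16.3, 18.2 and 19.1 FPKM in HN and 15.5, 17.8 and 13.3 FPKM in PEC, with a log2 fold change of -0.79 ± 0.13 (edgeR adjusted p = 0.00126). Ackr1 was called higher in HN from 0 counts in the Control. Pf4, a platelet and macrophage CXC ligand, had the largest fold among the others called, at 3.63 ± 0.38 (edgeR adjusted p = 7.03e-05), and was lower with PEC at -1.66 ± 0.34 (edgeR adjusted p = 0.00478). Cmklr1, the chemerin receptor, was also lower with PEC (-1.07 ± 0.20 (edgeR adjusted p = 0.00275)), while its ligand Rarres2 was higher (0.61 ± 0.15 (edgeR adjusted p = 0.0118)) and had the smallest called rise in HN (0.79 ± 0.15 (edgeR adjusted p = 0.0026)).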
